A study of Mus musculus with 19 samples.

Results

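The genes described here encode the enzymes of oxidative phosphorylation, measured in transferred CD8 T cells on oligonucleotide arrays. A probe set, the group of short probes that reports 1 transcript, was a member if its only gene symbol began with Nduf, Uqcr, Atp5 or Cox4 to Cox8, or was Sdha, Sdhb, Sdhc, Sdhd, Cyc1 or Cycs. That rule found 101 of the 12422 probe sets, for 73 of the 8251 genes with a probe set of their own. Complex I had 38 member probe sets for 29 genes, complex II 4 for 4 genes, complex III 9 for 8 genes, complex IV 23 for 15 genes and complex V 22 for 14 genes. Cytochrome c had 1 probe set, and 4 probe sets belonged to Ndufaf1 and Ndufaf4, which carry a prefix of the rule but are assembly factors and not subunits. A filter on mean signal at the 30th percentile kept 87 of the 101 probe sets, for 69 genes. It removed every probe set of 4 genes, Cox5a, Cox7a1, Cox8a and Atp5j2. The rule leaves out 10 probe sets that match several symbols, among them those of Cox7c, Ndufb4, Ndufs5, Ndufs6 and Ndufa11.

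The 19 arrays came from OT-I cells, CD8 T cells of mice that carry 1 transgenic receptor, moved into B6 host mice and later sorted from lymph node or spleen. Hosts were unirradiated (labelled nrd, 4 arrays, cells sorted at day 6) or irradiated, with cells sorted at day 5 (8 arrays), day 40 (4 arrays) or day 115 (3 arrays). Cells transferred into irradiated, lymphocyte-poor hosts divide without foreign antigen, and the series was set up to follow them during and after this homeostatic proliferation. For the day-5 arrays the titles give day 5 and the descriptions day 6, and for day-5 arrays 1 and 2 the descriptions do not name the cell type. All groups share the OT-I receptor, the transfer and the B6 host, and no unirradiated group was sorted at day 40 or day 115, so late time and irradiation of the host cannot be told apart. The labels do not say whether arrays of 1 group came from separate animals, so p-values measure the spread between these arrays, which may be technical. The number of arrays limits the precision.

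Oxidative phosphorylation takes place in the inner mitochondrial membrane. Complex I accepts electrons from NADH and complex II from succinate, complex III passes them to cytochrome c, and complex IV hands them to oxygen, while complexes I, III and IV pump protons that drive ATP synthesis by complex V. T cells that divide raise both glycolysis and mitochondrial respiration, and long-lived memory CD8 T cells are known for a large spare respiratory capacity fuelled by fatty acids. The members here are nuclear-encoded, and each complex except complex II also holds subunits made from mitochondrial DNA, which the rule does not cover.

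The arrays fell into 2 clusters when they were grouped by the correlation of all probe sets that were not members. All 3 day-115 arrays were in cluster 1, beside the first 3 of day 5 and the first 2 of day 40. All 4 unirradiated arrays were in cluster 2, beside day-5 arrays 4 to 8 and day-40 arrays 3 and 4. Arrays that shared both group and cluster had a median correlation of 0.983, those that shared only the group 0.930, and those that shared only the cluster 0.977. The labels name no date or batch that would say what the clusters are. Each comparison is therefore given from a model of groups alone and from a model that also holds the array cluster (the cluster term). Since day 115 lies in cluster 1 and the unirradiated group in cluster 2, the difference between those groups cannot be read within a cluster.

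The sorted cells showed the CD8 T cell transcripts on every array. The 12 measured CD8 T cell markers all lay above the filter, and their summed signal was 10355 to 12523 on unirradiated, 11092 to 17819 on day-5, 10839 to 17954 on day-40 and 13676 to 15160 on day-115 arrays. B and plasma cell markers (15 measured, 1 under the filter) summed to 1392 to 1717, 1655 to 3414, 2047 to 3848 and 3231 to 5141 in the same order. Liver markers (4 measured, 1 under the filter) summed to at most 196 before day 115 and to 180, 665 and 846 on the day-115 arrays, from lowest to highest. Both lists had their highest group median at day 115, as did the CD8 T cell markers. So did striated muscle markers (9 measured, 4 under the filter), with 286 to 326 on unirradiated and 346 to 382 on day-115 arrays. Myeloid and dendritic cell markers (11 measured, 3 under the filter) had medians of 655 on unirradiated and 761 on day-115 arrays, also the highest. The CD4 T cell list was highest at day 40. Among day-5 arrays, 12 of 14 tested B and plasma cell and 5 of 5 striated muscle markers were higher in cluster 1, which holds every day-115 array, as were 5311 of all 8695 tested probe sets. Erythroid markers (5 measured, none under the filter) summed to 792 to 882 on unirradiated, 703 to 3023 on day-5, 794 to 1322 on day-40 and 819.7 to 1685 on day-115 arrays. The part of these lists in the members' values was not tested.

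The members were mostly higher at day 5 than in unirradiated hosts and mostly lower at day 40 than at day 5. Differences are on the scale log2(signal + 16), which understates the change of dim probe sets, and a probe set was called changed at a Benjamini-Hochberg adjusted p under 0.05 over all 8695 tested probe sets. At day 5, 60 of 87 member probe sets were above the unirradiated mean, with a median difference of 0.149 against 0.029 over all tested probe sets. At day 40, 79 of 87 (90.8%) lay below the day-5 mean, against 51.2% of all tested probe sets, and the member median was -0.256 against -0.003. At day 115, 65 of 87 lay below day 5 (median -0.132 against -0.011). Between day 115 and day 40 the members were evenly split, with 45 of 87 higher and a median of 0.010 against -0.009. Probe sets of 1 pathway are not independent, and these counts and medians are descriptions. In sorted cells measured in bulk, fewer cells with a transcript and less RNA per cell cannot be told apart.

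**Figure D1:**
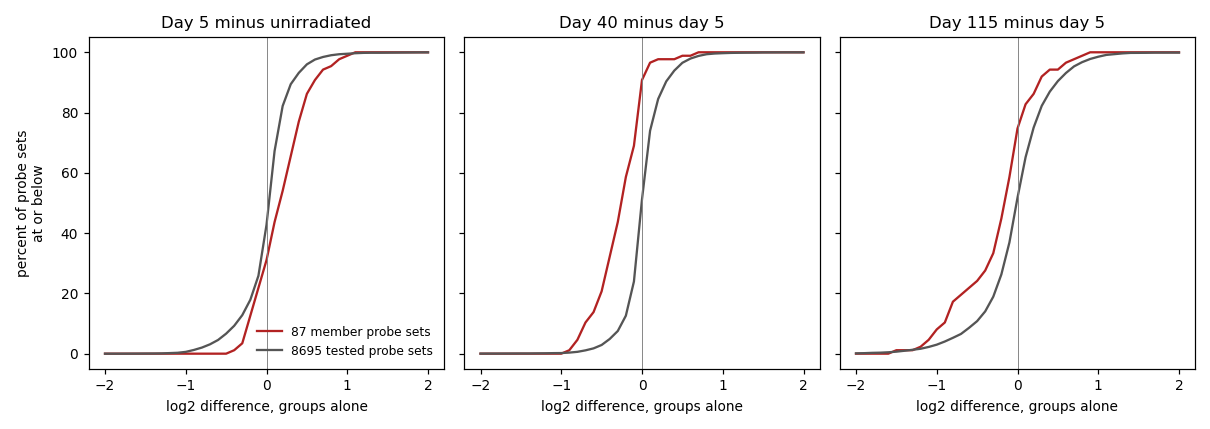
Cumulative share of probe sets (vertical axis, percent at or below) against the log2 difference between groups (horizontal axis) for 3 comparisons, red for the 87 tested members and grey for all 8695 tested probe sets. The red curve lies right of the grey one for day 5 minus unirradiated, where 31.0% of members and 42.7% of all probe sets are at or below 0, and left of it for day 40 minus day 5, where the shares are 90.8% and 51.2%.

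Within the arrays of 1 group the members also moved between the clusters, and not in 1 direction. Complex III probe sets were higher in cluster 1, by a median of 0.57 among day-5 arrays and 0.65 among day-40 arrays, and complex II probe sets were lower there, by 0.53 and 0.41. Cycs, cytochrome c itself, had a signal of 97.4, 65.3 and 76.9 on the cluster 1 arrays of day 5 and of 299.7 to 352 on the 5 cluster 2 arrays. Uqcrb, a small subunit of complex III, was split in the same direction, from 283 to 543 in cluster 1 and 1239.8 to 1598 in cluster 2. Uqcrc1, a core protein of complex III, was split in the other direction, from 680.2 to 899 in cluster 1 and 250.1 to 334 in cluster 2. For these 3 genes the cluster 1 and cluster 2 arrays of day 5 did not overlap. The clusters were made from the data, and no test of the difference between them is given.

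**Figure D2:**
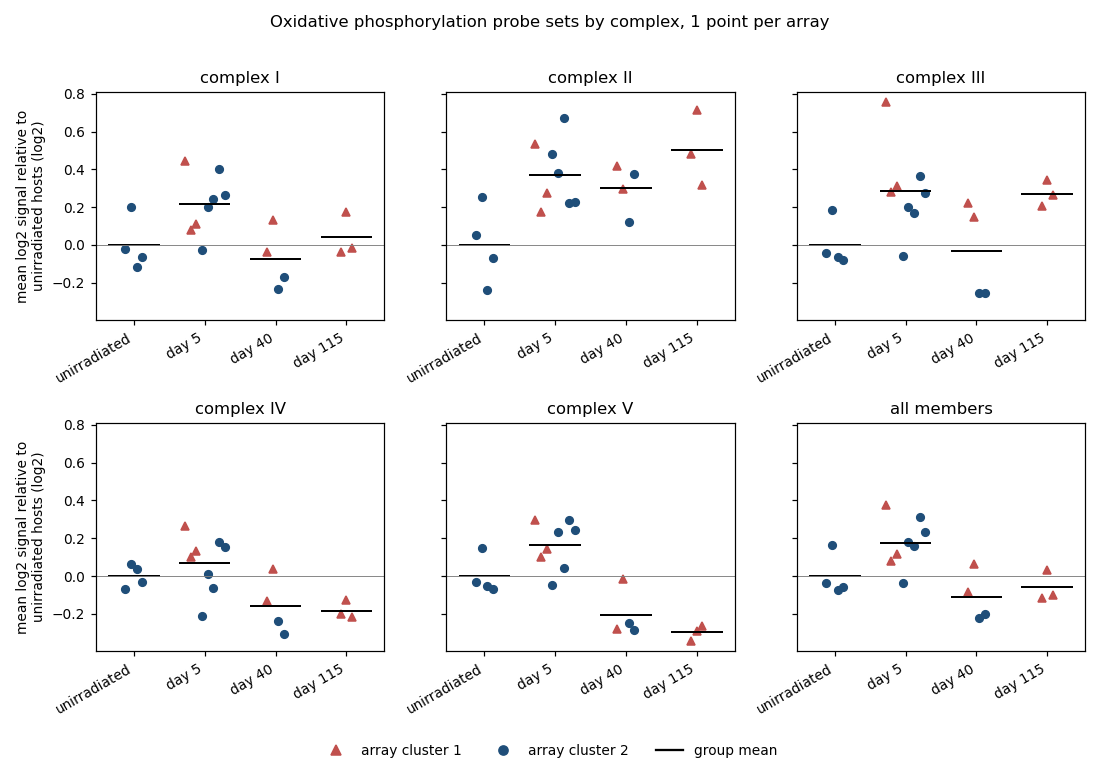
Mean log2 signal of the tested member probe sets of each complex, relative to the mean of the unirradiated arrays (vertical axis, log2), by group (horizontal axis). Each point is 1 array, red triangles are array cluster 1, blue circles are array cluster 2 and the black line is the group mean. For complex V the 4 day-40 arrays lie between -0.286 and -0.0153 and the 3 day-115 arrays between -0.343 and -0.262, while the 8 day-5 arrays lie between -0.0454 and 0.297.

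No member rose or fell past the threshold between day 5 and unirradiated hosts in the model of groups alone, where limma called 0.794% of all tested probe sets (0.414% higher, 0.38% lower). With the cluster term 1 member was called, against 1.61% of all tested probe sets (1.0% higher, 0.61% lower). That member was Sdhc, a membrane anchor of complex II. Its signal was 207, 213, 167 and 205 on the unirradiated arrays, and at day 5 it ran from 183 through a median of 269 to 339.9. The cluster 2 arrays of day 5 all lay above the 4 unirradiated arrays, and the cluster 1 arrays did not. The difference was 0.50 ± 0.12 (adjusted p = 0.0404) with the cluster term and 0.52 ± 0.11 (adjusted p = 0.0253) within cluster 2. Leaving out any of 9 of the 12 arrays ended the call, namely day-5 arrays 3, 5, 6, 7 and 8 and each of the 4 unirradiated arrays, with adjusted p up to 0.161.

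Complex I had 27 of 34 probe sets above the unirradiated mean at day 5 (median 0.209). Complex II had 3 of 4, complex III 6 of 9, complex IV 10 of 16 and complex V 13 of 20. Within cluster 2 alone, 3 members were called, all higher at day 5, where 2.38% of all tested probe sets were called (1.41% higher, 0.966% lower). They were Sdhc, Uqcrc1 at 0.56 ± 0.10 (adjusted p = 0.0133) and Ndufa9, a complex I subunit at the junction of its arms, at 0.58 ± 0.12 (adjusted p = 0.0285). Uqcrc1 was 189.8, 184, 192 and 178 on the unirradiated arrays and at least 250.1 at day 5, so that those groups did not overlap.

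Between day 40 and unirradiated hosts no member was called in either model. Of all tested probe sets, limma called 1.5% in the groups alone (1.16% higher, 0.334% lower) and 2.23% with the cluster term (1.81% higher, 0.426% lower). The largest differences in complex V were those of Atp5e, the epsilon subunit, at -0.97 ± 0.35, and of Atp5mpl at -0.96 ± 0.31. Neither passed the threshold (adjusted p = 0.186 and 0.136).

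Between day 40 and day 5, members of complexes I, III, IV and V fell and 1 member of complex II rose. In the groups alone limma called 1 of 87 members, against 1.25% of all tested probe sets (0.943% higher, 0.311% lower). Once the cluster was in the model it called 16 of 87 members, 15 lower and 1 higher, against 7.48% of all tested probe sets, of which 2.33% were lower and 5.14% higher. Of the 15 that fell, 7 were in complex I, 2 in complex III, 2 in complex IV and 4 in complex V. Within cluster 2, with 5 day-5 and 2 day-40 arrays, 13 members fell and none rose, against 5.66% of all tested probe sets (3.62% higher, 2.04% lower), and within cluster 1, with 3 and 2 arrays, 0 were called by limma, against 0.0115% of all tested probe sets. The member median was -0.193 within cluster 1 and -0.306 within cluster 2. The count of 16 became 28 without day-5 array 4, 6 without day-40 array 3 and 1 without day-40 array 4, so it rests largely on the day-40 arrays of cluster 2. The share of all tested probe sets called without these arrays was not counted. A model that lets the change differ between the clusters called none of the 87 members and none of the 8695 probe sets (smallest adjusted p = 0.62). In that model 12 of the 87 members and 609 of the 8695 probe sets were at an unadjusted p under 0.05.

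**Figure D3:**
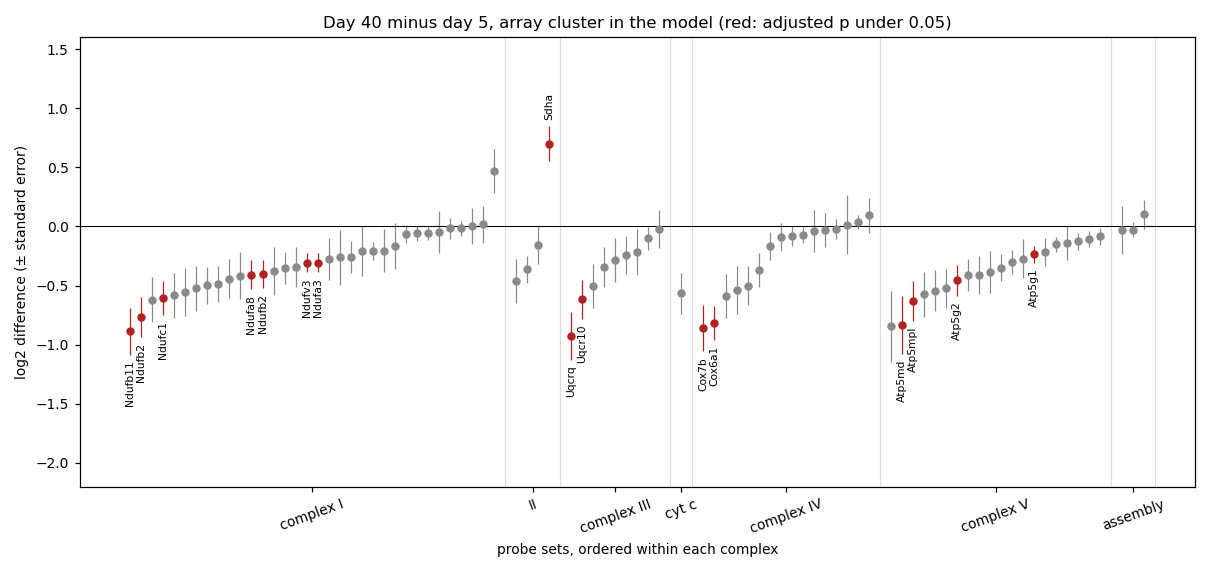
Log2 difference between day 40 and day 5 (vertical axis, points with standard errors) for the 87 tested member probe sets, ordered by size within each complex (horizontal axis), from the model with the array cluster as a term. Red points with a gene name are past an adjusted p of 0.05, and apart from Sdha in complex II all of them lie below 0.

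Cox6a1 held its call without any single array. It is the form of complex IV subunit VIa found in most tissues other than heart and skeletal muscle. Its signal at day 5 ran from 832 through a median of 1087 to 1707, and at day 40 it was 799, 1061, 508 and 554. The groups overlapped, but within each cluster every day-40 array lay below every day-5 array. The difference was -0.82 ± 0.15 (adjusted p = 0.00256) with the cluster term, -0.73 within cluster 1 and -0.89 within cluster 2. At day 115 the signals were 784, 611 and 984, all from cluster 1, and the difference from day 5 was -1.002 (adjusted p = 0.00224). Without the cluster term neither difference passed, with adjusted p = 0.116 at day 40 and 0.118 at day 115.

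Sdha, the flavoprotein of complex II that oxidises succinate, was the only member called higher at day 40 than at day 5. Its signal at day 5 ran from 39.4 through a median of 48.8 to 109, and at day 40 it was 78, 69, 104 and 137. The 3 cluster 1 arrays of day 5 (39.4 to 43.3) lay below both cluster 1 arrays of day 40, while in cluster 2 the highest day-5 array exceeded the lower of the pair of day-40 arrays. The difference was 0.70 ± 0.15 (adjusted p = 0.00791), and leaving out day-40 array 4 ended the call (adjusted p = 0.0746). At day 115 the signals were 89.6, 111 and 74, and the rise against day 5 was 0.93 ± 0.18 (adjusted p = 0.00404) with the term and 0.91 ± 0.14 (adjusted p = 0.0204) within cluster 1. That call held without any single array. Sdhb, the iron-sulfur subunit of the same complex, and the anchors Sdhc and Sdhd were not called, and their day-40 differences with the term were -0.46, -0.36 and -0.16 (adjusted p = 0.154, 0.057 and 0.662).

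Under the cluster term 8 genes fell against day 5 at both late times with at least 1 probe set, Cox6a1, Cox7b, Atp5g2, Ndufb2, Ndufb11, Ndufc1, Ndufa3 and Uqcr10, and Sdha rose. Of all tested probe sets, 2.33% were called lower at day 40 and 7.1% at day 115, and the share called at both was not counted. Both comparisons use the same day-5 arrays, so this overlap is not read as a result about the members. For Ndufb2 and Ndufa3 this rests on a probe set that is not the brightest of the gene. The brightest one of Ndufa3 was called at neither time, and that of Ndufb2 at day 40 only. The promoters of Sdha and of 3 of the 8 are shown, as examples chosen after their values and motifs were seen, so that they do not stand for the rest. The sequences are the 250 bases before the annotated start of transcription, from RefSeq on GRCm38.p6, read 5′ to 3′ on the gene's strand. Capitals mark matches on either strand to the core of NRF1 (GCGCA, any base, GCGC), of ETS factors such as GABPA (CCGGAAG) or of YY1 (AAGATGGC), factors known to act on nuclear genes of mitochondrial proteins. The windows are chr5:115348959-115349208, chr13:74350241-74350490 and chr15:102671048-102671297 on the minus strand and chrX:106015450-106015699 on the plus strand.
Cox6a1: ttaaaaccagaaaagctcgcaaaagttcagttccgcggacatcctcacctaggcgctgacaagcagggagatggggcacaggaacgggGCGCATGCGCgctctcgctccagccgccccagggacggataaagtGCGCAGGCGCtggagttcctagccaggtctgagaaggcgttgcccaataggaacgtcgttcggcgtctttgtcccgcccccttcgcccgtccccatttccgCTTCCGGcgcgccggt
Sdha: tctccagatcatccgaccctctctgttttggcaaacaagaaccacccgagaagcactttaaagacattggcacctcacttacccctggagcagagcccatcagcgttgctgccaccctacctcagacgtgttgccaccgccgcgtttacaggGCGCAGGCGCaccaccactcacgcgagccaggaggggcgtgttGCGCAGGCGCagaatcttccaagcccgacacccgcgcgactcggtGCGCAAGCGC
Atp5g2: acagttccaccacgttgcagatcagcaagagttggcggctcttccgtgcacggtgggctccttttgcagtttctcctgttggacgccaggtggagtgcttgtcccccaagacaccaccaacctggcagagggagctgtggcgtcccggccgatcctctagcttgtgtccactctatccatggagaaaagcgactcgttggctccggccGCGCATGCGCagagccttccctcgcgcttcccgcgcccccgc
Cox7b: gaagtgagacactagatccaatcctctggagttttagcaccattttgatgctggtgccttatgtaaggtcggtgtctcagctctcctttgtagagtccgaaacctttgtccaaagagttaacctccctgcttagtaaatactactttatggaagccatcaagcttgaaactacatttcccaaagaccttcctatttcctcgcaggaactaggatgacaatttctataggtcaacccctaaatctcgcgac
Cox6a1 has NRF1 matches ending 153 and 108 bases before the start and an ETS match 10 bases before it. Sdha has 3 NRF1 matches, 89, 46 and 1 bases before the start, and Atp5g2 has 1, at 33 bases. Cox7b has none of the 3 motifs in this stretch. Of the 8 genes that fell, 2 have an NRF1 match in this stretch, Cox6a1 and Atp5g2, and 6 have none of the 3 motifs in it.

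Over the members as a whole, 59 of the 73 genes were found in the promoter table, with 64 windows that run from 250 bases before to 50 after the start. The NRF1 core was in 20.3% of these windows and in 4.60% of all 32851 windows of the table, or 6.38% of those of protein-coding genes. The ETS core was in 25.0%, against 8.86% and 11.6%, and the YY1 core in 12.5%, against 2.75% and 3.05%. At least 1 of the 3 was in 33 of 64 member windows (51.6%), against 14.7% and 18.9%. By complex, such windows were 12 of 28 for complex I, 3 of 3 for complex II, 3 of 4 for complex III, 3 of 11 for complex IV and 10 of 15 for complex V. A match is a description of the letters and not of binding, and no match says only that these letters are not in the window.

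**Figure D4:**
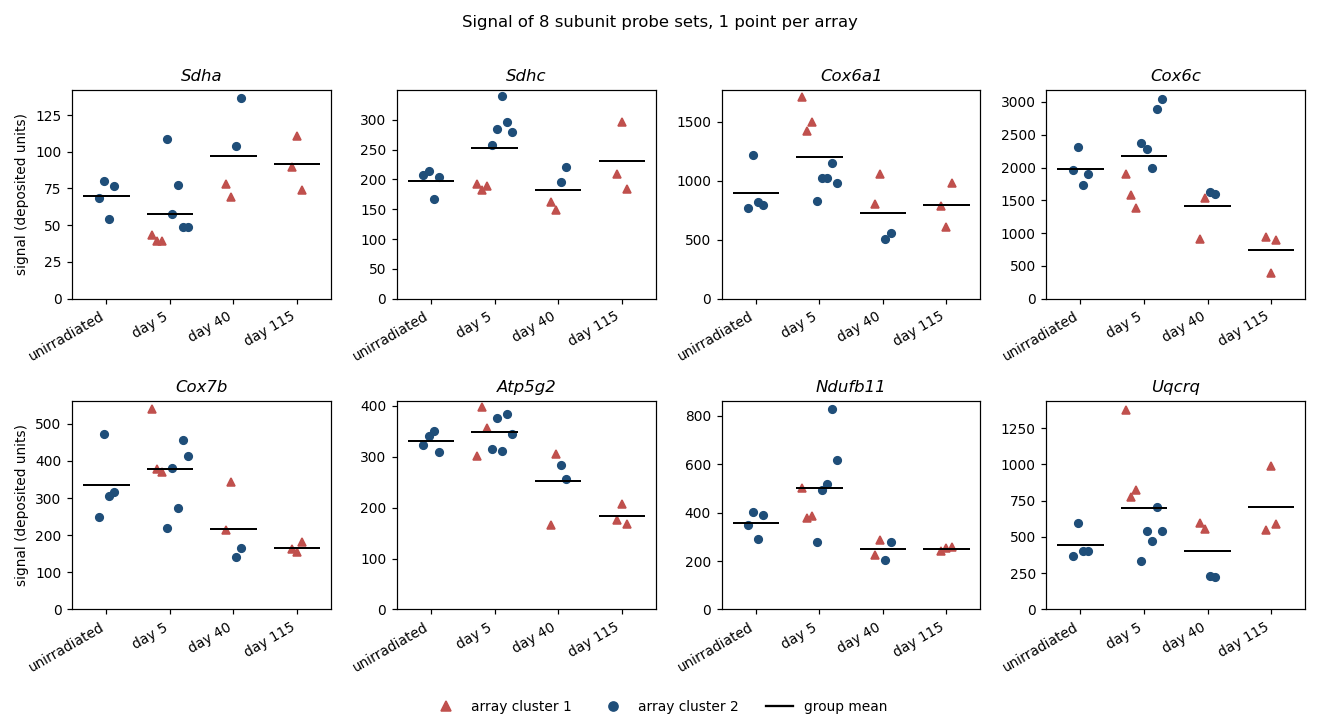
Signal of 8 subunit probe sets in deposited units (vertical axes, linear, from 0) by group (horizontal axes). Each point is 1 array, red triangles are array cluster 1, blue circles are array cluster 2 and black lines are group means. Cox6c and Atp5g2 have their lowest group means at day 115, with arrays at 389 to 943 and 169 to 207.5, and Sdha has its lowest signals, 39.4 to 43.3, on the day-5 arrays of cluster 1.

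In complex III, Uqcrq, a small accessory subunit, had 597, 554, 233 and 223 at day 40 and ran from 335 through a median of 625 to 1378 at day 5. The groups overlapped as a whole and not within either cluster. Uqcrq fell by 0.93 ± 0.20 on the log2 scale (adjusted p = 0.00966), a call lost without day-40 array 4 (adjusted p = 0.0752). Uqcr10, another small subunit, fell by 0.62 ± 0.16 (adjusted p = 0.0265). Its day-40 signals were 161, 223, 68.1 and 65.3, with the cluster 1 pair above the cluster 2 pair. The core protein Uqcrc1 and cytochrome c1, encoded by Cyc1, did not pass, with -0.24 ± 0.16 and -0.10 ± 0.09.

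In complex I the 7 called probe sets belonged to 6 genes of accessory subunits, Ndufb2 with 2 of them and Ndufb11, Ndufc1, Ndufa8, Ndufa3 and Ndufv3. For Ndufa3 the call was at its dimmer probe set, and the brighter one was not called. Ndufb11 was the single member called in the groups alone, at -0.91 ± 0.21 (adjusted p = 0.0364). Its signal was 225, 288, 207 and 278 at day 40 and ran from 277 through 498 to 829 at day 5, so that the groups overlapped by 1 day-5 array. That call was lost without any of 7 of the 12 arrays, day-5 arrays 5, 6 and 8 and the 4 day-40 arrays (adjusted p up to 0.122). Under the cluster term it fell by 0.89 ± 0.20 (adjusted p = 0.0108), and that call was lost without day-40 array 3 or day-40 array 4 (adjusted p up to 0.064). Ndufb2 fell by 0.77 ± 0.17 (adjusted p = 0.00966) at the probe set whose day-40 signals were 199.8, 296, 283 and 284, all below its lowest day-5 signal of 359. A brighter Ndufb2 probe set fell by 0.40 ± 0.12 (adjusted p = 0.0465). Without day-40 array 4 the first of these calls was lost (adjusted p = 0.0708). Ndufc1 was at 126 ± 13.6 (SD, n = 4) at day 40 and 214 ± 66.3 (SD, n = 8) at day 5, with no overlap, and fell by 0.60 ± 0.15 (adjusted p = 0.0176).

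Ndufv1, Ndufv2, Ndufs1 and Ndufs3, core subunits of complex I, were not called. Ndufv1, which carries the NADH site, had a difference of 0.02 ± 0.16, and Ndufs1, the large iron-sulfur subunit, one of 0.47 ± 0.18 (adjusted p = 0.969 and 0.141). Ndufv2, a small iron-sulfur subunit beside Ndufv1, was at -0.26 and -0.21 at its 2 probe sets (adjusted p = 0.595 and 0.0981). Ndufs3, another core subunit, was at -0.16 (adjusted p = 0.709). Ndufs1 was at 280.3 ± 95.3 (SD, n = 8) at day 5 and 375 ± 102 (SD, n = 4) at day 40. Whether these differ from the accessory subunits was not tested. The brightest complex I probe sets, those of Ndufb5 and Ndufa9, were at -0.50 and -0.20 (adjusted p = 0.0574 and 0.583).

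In complex IV, Cox7b joined Cox6a1. Cox7b, a small structural subunit, was 214, 344, 141 and 166 at day 40 and ran from 221 through a median of 380.1 to 541 at day 5. Day-40 array 2 stood within the day-5 range and the other day-40 arrays lay below its lowest value. Cox7b fell by 0.86 ± 0.20 (adjusted p = 0.0121), a call lost without day-40 array 3 or day-40 array 4 (adjusted p up to 0.0749). Complex IV as a whole had the smallest shift, with a median of -0.086 over 16 probe sets in the model with the cluster term, against -0.305 in complex I, -0.281 in complex III and -0.368 in complex V. The difference between complexes was not tested.

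Every one of the 20 tested complex V probe sets lay below its day-5 mean at day 40, with and without the cluster term. The 4 called were Atp5md, Atp5mpl, Atp5g2 and Atp5g1. For Atp5g1 the call was at its dimmer probe set, with a mean signal of 42.3, and the brighter one, at 140, was not called. Atp5g2 and Atp5g1 encode the same mature protein, subunit c, which forms the rotating membrane ring, while Atp5md and Atp5mpl are small membrane subunits. Atp5md ran from 1439 through 2474 to 4358 at day 5 and was 1772, 1296, 1127 and 1128 at day 40. It fell by 0.83 ± 0.25 (adjusted p = 0.0443), but by 0.21 within cluster 1 against 1.35 within cluster 2, and 8 of the 12 arrays were each needed for the call, namely day-5 arrays 1, 5, 6, 7 and 8 and day-40 arrays 2, 3 and 4 (adjusted p up to 0.254). Atp5mpl was 404, 513, 701 and 667 at day 40, against 499 to 1593 at day 5, and fell by 0.63 ± 0.17 (adjusted p = 0.0288). That call was lost without day-5 array 1 or day-40 arrays 1, 3 or 4 (adjusted p up to 0.166). Of the catalytic head, Atp5a1, the alpha subunit, was at -0.22 ± 0.12 and Atp5c1, the gamma stalk, at -0.27 ± 0.16 with its brighter probe set. Neither passed.

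At day 115 members of complexes I, IV and V fell against day 5, and with the cluster term also 1 of complex III. The day-40 and day-115 comparisons share the day-5 arrays, and each is given with its own values. In the groups alone 13 of 87 members were called, all lower, against 13.9% of all tested probe sets, 5.62% lower and 8.23% higher. These were 4 of complex I, 4 of complex IV and 5 of complex V. Under the cluster term 19 were called, 18 lower and 1 higher, against 14.3%, with 7.10% lower and 7.23% higher. Of the 18, 6 were in complex IV, 7 in complex V, 4 in complex I and 1 in complex III. These are counts of probe sets and not of genes, since Atp5d in complex V and Cox6c in complex IV each had several of them. Atp5c1, Cox4i1, Cox6b2, Ndufa3 and Ndufb2 were called only at a probe set that was not their brightest. The complexes were not tested against each other. All 20 complex V probe sets lay below day 5, with a median of -0.499. Within cluster 1, with 3 arrays a group, 4 members were called, 3 lower and 1 higher, against 1.28% of all tested probe sets (0.909% higher, 0.368% lower). The count of 13 became 20 without day-5 array 2 or 3, 7 without day-115 array 1 or 2 and 8 without day-115 array 3. That of 19 became 12 without day-5 array 2 and 8 without day-5 array 3. How the share of all tested probe sets moved without these arrays was not counted.

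**Figure D5:**
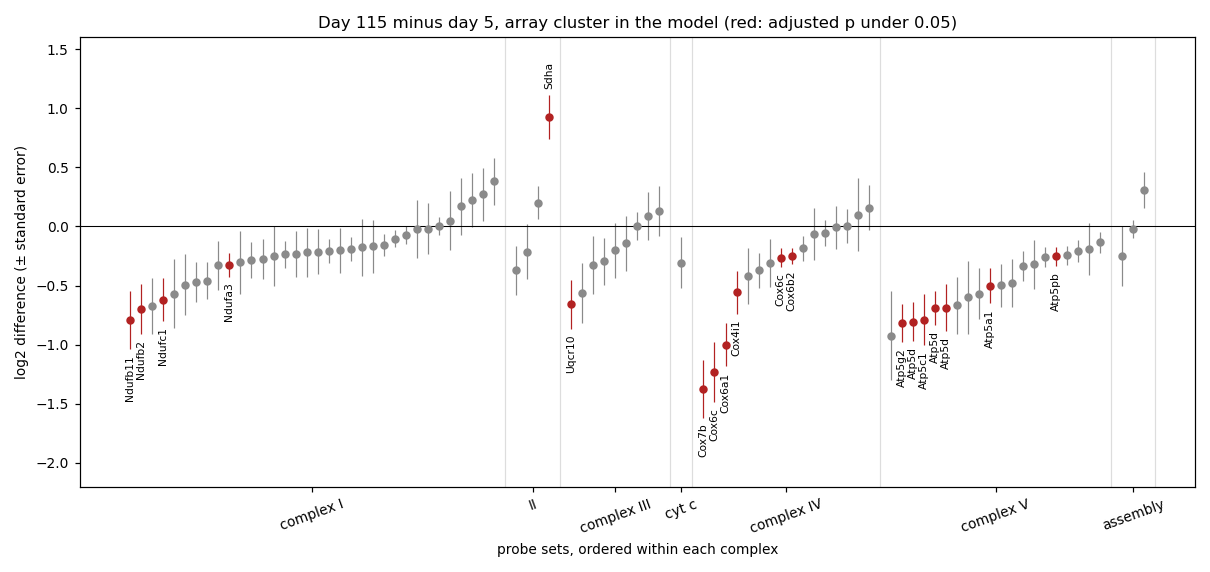
Log2 difference between day 115 and day 5 (vertical axis, points with standard errors) for the 87 tested member probe sets, ordered by size within each complex (horizontal axis), from the model with the array cluster as a term. Red points with a gene name are past an adjusted p of 0.05, and Cox7b, Cox6c and Cox6a1 in complex IV lie between -1.37 and -1.002.

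Cox6c had the largest fall of any member in the groups alone. Its brightest probe set had 943, 389 and 900.5 at day 115, 903, 1534, 1622 and 1602 at day 40, 1959, 2314, 1737 and 1908 in unirradiated hosts, and ran from 1381 through 2132 to 3045 at day 5. Every day-115 array lay below every day-5 and every unirradiated array. Against day 5 it fell by 1.58 ± 0.27 in the groups alone (adjusted p = 0.00168) and 1.23 ± 0.25 with the cluster term (adjusted p = 0.00461), and both calls held without any single array. The other Cox6c probe sets differed, with a called fall of 0.26 ± 0.08 (adjusted p = 0.042) at the dimmest and 0.16 ± 0.19 (adjusted p = 0.598) at the third. The brightest one, like those of Cox6a1, Atp5g2 and Atp5d, carries the letter f in its name, by which the platform marks probes shared by a family of sequences, so related copies could add to the signal.

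Cox7b was 164, 154 and 181 at day 115, below every day-5 array and every unirradiated array. Under the cluster term it fell by 1.37 ± 0.24 against day 5 (adjusted p = 0.00196), by 1.27 ± 0.22 within cluster 1 (adjusted p = 0.024), and against unirradiated hosts it fell by 1.39 ± 0.31 (adjusted p = 0.0164). Its calls from the cluster term, against day 5 and against unirradiated hosts, held without any single array. Cox8c, whose expression is best known from testis, was at 201 ± 16.3 (SD, n = 3) at day 115 and 288 ± 39.6 (SD, n = 8) at day 5. It passed in the groups alone, at -0.48 ± 0.15 (adjusted p = 0.0391), and not with the cluster term, at -0.37 ± 0.15 (adjusted p = 0.101).

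In complex V, Atp5g2 had 176, 208 and 169 at day 115, 166, 306, 284 and 256 at day 40 and 322, 340.4, 349.7 and 308 in unirradiated hosts, and ran from 301 through 350.3 to 397 at day 5. The day-115 arrays lay below all day-5 and unirradiated arrays. Atp5g2 fell by 0.86 ± 0.15 against day 5 (adjusted p = 0.00196) and by 0.82 ± 0.16 with the cluster term (adjusted p = 0.00404), in both cases without dependence on any single array. A second, dim Atp5g2 probe set was at -0.26 (adjusted p = 0.0538). Atp5d, the delta subunit of the central stalk, had 5 tested probe sets. Of these, 3 of the f kind fell under the cluster term by 0.81, 0.69 and 0.69 (adjusted p = 0.00507, 0.00552 and 0.0306), and the first of these held without any single array. In the groups alone none of these 3 was called, and a dimmer Atp5d probe set was, at -0.40 ± 0.11 (adjusted p = 0.0261).

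Atp5a1, the alpha subunit of the catalytic head, had the highest mean signal of complex V. It was 1566, 1447 and 1377 at day 115 and 3677, 3351, 3752 and 3971 in unirradiated hosts, and it ran from 1896 through 4027 to 5272 at day 5. The 3 cluster 1 arrays of day 5, from 1896 to 2075, were the nearest to day 115. The fall against day 5 was 1.17 ± 0.32 in the groups alone (adjusted p = 0.0209), 0.50 ± 0.15 with the cluster term (adjusted p = 0.0312) and 0.44 ± 0.20 within cluster 1, where it did not pass (adjusted p = 0.239). The call in the groups alone was lost without any of the 3 day-115 arrays (adjusted p up to 0.0719), and the one with the term without day-5 array 3 or day-115 arrays 2 or 3 (adjusted p up to 0.0686). Atp5c1, the gamma stalk, fell at 1 of its 2 probe sets, by 0.79 ± 0.22 (adjusted p = 0.0225), and this call was lost without day-5 array 3 or day-115 arrays 1 or 3 (adjusted p up to 0.0553). Atp5o, which joins head and stator, was at -0.32 ± 0.21 (adjusted p = 0.308).

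In complex I, Ndufb2, Ndufb11 and Ndufab1, the mitochondrial acyl carrier protein, were among the called falls at day 115. Ndufb2 was 238, 237 and 242 at day 115, below all day-5 arrays, and fell by 0.95 ± 0.22 in the groups alone (adjusted p = 0.00951), a call that held without any single array. With the cluster term it fell by 0.70 ± 0.21 (adjusted p = 0.0346), lost without any of day-5 arrays 1 to 3 or day-115 arrays 1 to 3 (adjusted p up to 0.0783). Ndufb11 was 239.7, 253 and 257, also below all day-5 arrays, and fell by 0.89 ± 0.23 (adjusted p = 0.0161), lost without day-115 array 1 or 2 (adjusted p up to 0.0574). Ndufab1 was 101, 89.1 and 90.6 at day 115 and ran from 132 through 208 to 309 at day 5, with no overlap. It fell by 1.003 in the groups alone (adjusted p = 0.0159), lost without day-115 array 2 or 3 (adjusted p up to 0.0658), and was at -0.67 ± 0.24 (adjusted p = 0.0652) with the term.

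Between day 115 and unirradiated hosts, members changed in both directions. In the groups alone 22 of 87 were called, 7 higher and 15 lower, against 27.9% of all tested probe sets, 15.1% higher and 12.8% lower, so the members' share was near the background. Under the cluster term 8 were called, 2 higher and 6 lower, against 4.42%, of which 3.15% were higher and 1.27% lower. The higher ones in the groups alone were Uqcrc1, Sdhb, Ndufa7, Ndufb7, Cox5b, Cyc1 and Ndufv1. None of these 7 passed with the cluster term. The count of 22 became 13 without day-115 array 1, 10 without day-115 array 2, 9 without day-115 array 3, 13 without unirradiated array 1, 12 without array 3 and 10 without array 4. That of 8 became 4 without day-115 array 1 or 2, 3 without unirradiated array 1 or 2, and 1 without unirradiated array 3 or 4. How the share of all tested probe sets moved in these fits was not counted.

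Uqcrc1 was 189.8, 184, 192 and 178 in unirradiated hosts and 606, 1278 and 605 at day 115, with no overlap. Its rise was 1.97 ± 0.44 (adjusted p = 0.00508) in the groups alone, and it held without any single array. Under the cluster term the difference was 0.69 ± 0.25 (adjusted p = 0.121), and on the cluster 1 arrays of day 40 Uqcrc1 was at 558 and 585. Sdhb was at 144 ± 46.1 (SD, n = 4) and 512 ± 118 (SD, n = 3), and its difference went from 1.74 ± 0.52 (adjusted p = 0.0205) to 0.20 ± 0.29 (adjusted p = 0.715) with the term. Without day-115 array 2 or unirradiated array 4 the first of these was lost (adjusted p up to 0.0733). Cycs fell in the groups alone, at -1.37 ± 0.50 (adjusted p = 0.0485), a call lost without any 1 of the 7 arrays, and turned to 0.13 ± 0.27 with the term.

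The members called with the cluster term were Cox7b, Cox6a1, Atp5g2, Cox6b2 and 2 probe sets of Atp5d, all lower, and Sdha and Sdhc, both higher. In the groups alone both Atp5d probe sets lay above the unirradiated mean instead, at 0.23 and 0.04 (adjusted p = 0.639 and 0.938). Cox6a1 turned to 0.023 in the groups alone after quantile normalisation, and Sdhc to -0.0072 in the groups alone without day-115 array 2. Sdha was 68.5, 80.3, 54.3 and 76.8 in unirradiated hosts and 89.6, 111 and 74 at day 115, with overlap. Its difference with the cluster term was 0.87 ± 0.23 (adjusted p = 0.0395). Sdhc was 209.9, 297 and 183 at day 115, also with overlap, and its difference with the term was 0.70 ± 0.18 (adjusted p = 0.0316). No cluster held arrays of both groups, so the cluster part of these differences came from the groups with arrays in both clusters. They are model estimates and not rises or falls read between the arrays. Of the members called with the term, only Cox7b and Atp5g2 were also called in the groups alone. Their differences there were -0.91 ± 0.29 and -0.79 ± 0.17 (adjusted p = 0.0262 and 0.00463). With the cluster term, the calls of Sdha, Sdhc, Cox6a1, Atp5g2, Cox6b2 and Atp5d each depended on single arrays. Each was lost without at least 1 of the day-115 arrays and at least 2 of the unirradiated arrays, left out singly (adjusted p up to 0.0717 to 0.115). Only the call of Cox7b with the term held without each of the 7.

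Between day 115 and day 40 limma called 0 of 87 members in the groups alone and 0 with the cluster term. The background was 0.092% of all tested probe sets, all of them higher, and 0.196% (0.127% higher, 0.069% lower). Cox6c was at -0.98 ± 0.31 (adjusted p = 0.237), and its groups overlapped through day-40 array 1. A p that misses the threshold with 4 and 3 arrays does not show that the levels were alike.

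Among the subunits that exist in tissue forms, the forms known from heart and skeletal muscle were under the filter or not called. Cox7a1 lay under the filter at 9.18 to 12.8 at day 5, and Cox8b and Cox6a2 were called in none of the 6 comparisons. Cox6a2 was at 54.3 ± 1.83 (SD, n = 4), 58.2 ± 6.4 (n = 8), 54.9 ± 5.11 (n = 4) and 60.8 ± 15.3 (n = 3) from unirradiated hosts to day 115. Of the forms found in most tissues, Cox7a2 was at 412 ± 79.2 at day 5 and 294 ± 80.4 at day 40, a difference of -0.50 ± 0.16 (adjusted p = 0.0676), and Cox6b1 at 87.2 ± 15.7 and 87.6 ± 12.2. Cox4i1, a core nuclear subunit of complex IV, was at 0.00 ± 0.14 against day 5 at day 115 with its brighter probe set, while the other one fell by 0.56 ± 0.18 (adjusted p = 0.0439). Cox7a2l, which helps to join complexes III and IV, was at -0.06 ± 0.22. Probe sets of different genes differ in their response to the same amount of RNA, and their levels are not compared.

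Where a gene had several tested probe sets, they did not always point the same way. Of 13 such genes, 10 had all their probe sets on the same side of 0 for day 40 against day 5 in the groups alone and 11 with the cluster term, but 5 and 6 for day 5 against unirradiated hosts. With 1 probe set per gene, the brightest, 64 of 69 genes lay below day 5 at day 40 and 13 were called with the cluster term, 12 of them lower. The assembly factors Ndufaf1 and Ndufaf4 were not called in any comparison, with day-40 differences from day 5 of -0.03 and 0.10 for their brighter probe sets.

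Other gene groups of the mitochondrion were counted for day 40 against day 5, where the cluster term model called 7.48% of all tested probe sets (5.14% higher, 2.33% lower). In lists this short, 0 or 1 calls cannot be told apart from that share. With the cluster term, 1 of 15 genes of fatty acid oxidation was called and none of 13 genes of the citric acid cycle, 15 assembly factors, 11 regulators, 11 carriers and channels and 9 redox enzymes. The 1 called was Hadhb, a subunit of the trifunctional enzyme, which rose by 0.40 (adjusted p = 0.0487). All 11 carriers and channels lay below day 5 (median -0.122), and the medians were -0.014 for the citric acid cycle, -0.094 for assembly factors, 0.041 for regulators and 0.013 for fatty acid oxidation. Whether the subunits differ from these groups was not tested. For day 115 against day 5 the same model called 14.3% of all tested probe sets (7.23% higher, 7.1% lower). The genes named next were picked for their calls, from lists of 15 assembly factors, 13 citric acid cycle genes and 15 fatty acid oxidation genes. Cox17, a copper carrier for the assembly of complex IV, fell by 0.80 (adjusted p = 0.0311). Dlst, a subunit of the 2-oxoglutarate dehydrogenase complex, rose by 0.71 (adjusted p = 0.0325), as did Echs1 and Hadhb of fatty acid oxidation by 0.56 and 0.48 (adjusted p = 0.031 and 0.0408), while Acads fell by 0.69 (adjusted p = 0.00922).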

How the data were processed

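Per the labels, RNA of 19 samples of sorted cells was measured on 19 oligonucleotide arrays. The authors deposited 1 linear signal intensity per probe set and array, with a method not given in the sources used here. Array medians ran from 49.5 to 53.7, and the intensities were used with no further normalisation. The 66 control probe sets were left out. Symbols came from the platform's probe table.

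Of these intensities, log2(signal + 16) entered linear models in limma 3.58.1 under R 4.3.3 (eBayes with an intensity trend, all 4 groups, 6 comparisons) on 8695 probe sets with a mean signal above 26.4, the 30th percentile. P-values were adjusted by Benjamini-Hochberg over all of them. The fit was tested on simulated data. Array clusters came from average linkage on correlations of non-members, cut at 2.

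Members, gene lists and motifs were chosen with earlier results of these data known. Named were called members, at most 8 per comparison and model, the 2 brightest of each complex, core subunits, tissue forms and non-subunits. Members named beyond this rule were chosen after their values were seen. Uqcrfs1, Atp5b, Cox4i2, Ndufa4 and Ndufa4l2 are not analysed here. Promoters are from RefSeq on GRCm38.p6. Alternatives covered the cluster, pseudocount, filter, scaling, replicate block, groups fitted, probe sets counted and single arrays.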

Additional observations from a re-analysis of the deposited data

Results flagged for a closer look

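Within groups of 4 to 8 arrays, the highest or lowest array was set apart from the others by Dixon's gap test in 11 of 84 groups of values tested. Chance alone would set apart about 1 in 20 independent groups. These groups of values reuse the same arrays, overlapping scores and probe sets picked for their calls, so the count cannot be read as an excess over chance. No cause was tested.

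Unirradiated array 2 accounted for 6 of them. Its mean over all members was 0.165 (log2, relative to the unirradiated mean), against -0.0748 to -0.0345 on the other unirradiated arrays. Its mean over complex III was 0.185, against -0.0775 to -0.0419, and over complex V it was 0.151, against -0.0685 to -0.0326. Its signals of Ndufb2, Uqcrq and Cox6a1 were 573, 598 and 1215, against at most 409, 402 and 818 on the other 3.

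Day-40 array 2 had a complex V mean of -0.0153, against -0.286 to -0.249 on the other day-40 arrays. Day-40 array 1 had a Ndufb2 signal of 199.8, against 283 to 296, and a Cox6c signal of 903, against 1534 to 1622. Day-5 array 1 had a Sdhb signal of 849, against 169.7 to 470.0, and a Uqcrq signal of 1378, against 335 to 824.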

How the results depend on the processing

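In the groups alone 0 members were called for day 5 against unirradiated hosts, with 1 under the cluster term and 3 in cluster 2 alone. For day 40 against day 5 there was 1, against 16 with the cluster term, 13 in cluster 2 alone and 0 in cluster 1 alone. For day 115 against unirradiated hosts there were 22 and, with the term, 8, and for day 115 against day 5 there were 13 and, in cluster 1 alone, 4. The member median for day 40 against unirradiated hosts moved from -0.067 to -0.19 in cluster 2 alone.

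Other settings moved the day 40 against day 5 count from 1 to 2 (pseudocount 1, filter at the 50th percentile, upper quartile scaling), 3 (quantile normalisation) or 0 (a fit of the 2 groups compared). The fit of those 2 groups called 0.529% of all tested probe sets. For the other settings that share was not counted, so a move of the members alone cannot be told from one of all probe sets. Fits of the 2 groups compared called 2 for day 40 and 36 for day 115 against unirradiated hosts, and 8 for day 115 against day 5, beside 3.14%, 37.1% and 7.57% of all tested probe sets. All 6 member medians kept their sign in every setting that uses all arrays, except that of day 115 against day 40, which lies near 0.

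Same-numbered arrays of different groups had correlations of deviations from group means of -0.67 to 0.76 (median 0.067). Those of other numbers had -0.80 to 0.74 (median -0.013). The array cluster also enters these deviations, so the values do not settle whether replicate numbers pair the arrays. With the replicate block, 18 members were called for day 5 and 3 for day 40 against unirradiated hosts, 0 for day 40 and 1 for day 115 against day 5, beside 19.6%, 4.68%, 0.403% and 2.28% of all tested probe sets.

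Against unirradiated hosts at day 115, direction turned with the cluster term for Cycs (0.13), Ndufa7 (-0.057) and Atp5d (-0.77 and -0.69 at a pair of probe sets), with quantile normalisation for Cox6a1 (0.023), and for the second Atp5d probe set also with upper quartile scaling (-0.000457), the replicate block (-0.083) and without day-115 array 3 (-0.024) or unirradiated array 3 (-0.0012), over a range without single arrays up to 0.0766. Without day-115 array 2, Sdhc turned (-0.0072, with up to 0.318 without others). The cause was not tested.

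Leaving out single arrays moved the counts of called members. For day 40 against day 5 they ran from 0 to 5 in the groups alone and from 1 to 28 with the term. For day 115 against day 5 they ran from 7 to 20 and from 8 to 21 (12 without day-5 array 2). For day 115 against unirradiated hosts they ran from 9 to 15 and from 1 to 9. With the term, those of day 5 and day 40 against unirradiated hosts ran from 0 to 2 each. The share of all tested probe sets called without each array was not counted.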
